A study of Mus musculus with 16 samples.

Results

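Collagens are the triple-helical proteins that give the extracellular matrix its tensile strength. Each molecule is a trimer of alpha chains, and the genes described here encode those chains. The collagen chain genes on the array were taken as every gene whose symbol begins with Col, a type number, the letter a and a chain number, read from probe sets that name 1 gene. There were 44 such genes among the 19938 genes measured, represented by 46 probe sets, and for the 2 genes with several probe sets, Col6a5 and Col6a6, the brightest on average was used. By the textbook classes, 11 are fibrillar, 6 are type IV chains of basement membranes, 6 are type VI chains, 9 are fibril-associated, 4 are network-forming or anchoring, 2 are multiplexins, 4 are transmembrane and 2 belong to other types.

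Gene expression was measured on 16 arrays of halved mouse kidney. According to the study's design text, all animals were transgenic mice in which doxycycline deletes Vhl in the renal tubule through a Pax8-rtTA system, so cells outside the tubule keep Vhl. The genotype label of the control arrays reads wt, and whether those animals carried the transgene is therefore not settled here. The control group (n = 3) was untreated. The VHL-KO group (n = 3) was given subcutaneous doxycycline, 0.1 mg for each 10 g of weight, 4 days before the animals were killed. The AKI group (n = 5) had rhabdomyolysis-induced acute kidney injury, from 50% glycerol at 0.05 ml per 10 g injected into the muscle of the left hind limb, and had no drinking water from 20 h ahead of the injection until 24 h past it. The VHL-KO/AKI group (n = 5) received both treatments. No group received doxycycline without deletion or water withdrawal without glycerol, and both sexes were used. The replicates are labelled as biological. Glycerol releases myoglobin from muscle, which injures the tubule, and loss of the von Hippel-Lindau protein stabilises the hypoxia-inducible transcription factors (HIF).

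Vhl, the deleted gene, ranged from 7.03 to 7.10 (log2) in control and 7.01 to 7.36 in AKI, and from 6.62 to 6.70 in VHL-KO and 6.35 to 6.66 in VHL-KO/AKI. AKI replicate 4 stood apart, with a mean correlation of 0.973 with the rest of its group against 0.988 to 0.989 for the other AKI arrays. Its mean over the proximal tubule markers was the highest of the AKI group, at 11.8 against a group minimum of 10.1, and its mean over the injured tubule markers, 9.69, was the lowest. Sex-linked transcripts also split the arrays. Xist, the X-inactivation transcript, was between 10.2 and 11.5 in all 6 uninjured kidneys and between 4.16 and 5.08 in all 10 injured kidneys. The mean of 3 Y-linked genes was 7.77 to 8.27 in the injured kidneys, 4.81 to 4.88 in VHL-KO, and 4.96 to 7.43 in control, where replicate 3 was the highest. That control array also had Xist at 10.2, so it carried both signals, and the reason was not tested. Injury and sex-linked signal therefore cannot be told apart in the comparisons of injured with uninjured kidneys. When the sex-linked signal was added to the model, none of the 19938 genes, and no collagen, passed in those comparisons in limma, and 1 collagen in each had an unadjusted p below 0.05. The tissue label was met by the proximal tubule markers, whose mean lay between 10.1 and 12.2 on every array.

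Type IV collagen forms the sheet-like network of basement membranes. The chains Col4a1 and Col4a2 make a network present in nearly every basement membrane, while Col4a3, Col4a4 and Col4a5 make the network of the mature glomerular basement membrane, secreted by podocytes, and are also found in some tubular basement membranes. Each type IV gene lies head to head with its partner on the opposite strand. The start sites of the type IV genes are shown because the Col4a1 and Col4a2 pair and the Col4a3 and Col4a4 pair moved in opposite directions in AKI against control. Sequences are from RefSeq on GRCm38.p6, and a listed start is the one from which a gene's promoter window was set. RefSeq gene bounds can lie outside it, as for Col4a4, whose bound is at 82587034. The first spans the starts of Col4a1 and Col4a2 on mouse chromosome 8, chr8:11312801-11312830, plus strand, and its capitals run from the listed start of Col4a2 to the listed start of Col4a1.
Col4a1 and Col4a2 starts: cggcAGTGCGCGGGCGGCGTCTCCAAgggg
Col4a4 start: agcagccctgcccagattaagcggGaggcg
Col4a5 upstream: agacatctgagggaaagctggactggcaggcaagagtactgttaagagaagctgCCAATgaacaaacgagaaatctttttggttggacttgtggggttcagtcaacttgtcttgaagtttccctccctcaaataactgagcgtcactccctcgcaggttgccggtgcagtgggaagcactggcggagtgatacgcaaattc
The second lies at chr1:82586844-82586873, minus strand, and its capital is the listed start of Col4a4, inside the gene bound. The third lies at chrX:141475169-141475369, plus strand, with a CCAAT motif in capitals. It ends just before the RefSeq gene bound of Col4a5, 141475370, and not at the listed start. The listed starts of Col4a1 and Col4a2 are 21 bases apart, whereas those of Col4a5 and Col4a6 are 1343 bases apart. The 300-base promoter window of Col4a1, reaching from 250 bases before the start to 50 after it, had a GC content of 74.0%, and that of Col4a2 73.7%. Col4a4 had 63.3%, Col4a5 52.7% and Col4a6 48.3%, against a median of 52.7% over all windows.

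Windows were found for 35 of the 44 collagen genes, 38 windows in all, and each was searched on both strands for 6 motifs. GGGCGG, a GC box, was in 23 of the 38 collagen windows (60.5%), against 35.7% of 32851 windows in the whole table. The motif holds only G and C, most collagen windows were above the median GC content of 52.7%, and GC content was not matched. Some collagen windows also overlap each other, as for Col6a2. CCAAT was in 34.2% of collagen windows against 37.4% of all, and TATAAA in 13.2% against 13.6%. ACGTG, the core of the hypoxia response element, was in 13.2% against 19.6%. The overlapping form GCGTG was in 26.3% against 32.4%, and TGANTCA, the AP-1 site, in 2.63% against 7.81%. Of the 5 type IV genes with a window, Col4a4 alone held ACGTG and it held none of the other motifs. The windows of Col4a1 and Col4a2, which overlap each other, each held CCAAT, the GC box and GCGTG. A match is a description of these letters and not evidence of binding.

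Glycerol injury was accompanied by opposite movements within the type IV family. Col4a1 and Col4a2, the ubiquitous chains, were higher in AKI than in control, and Col4a3 and Col4a4, the glomerular chains, were lower. In the comparison of AKI with control, 12 of 44 collagen genes passed at an adjusted p below 0.05 in limma with Benjamini-Hochberg adjustment over all 19938 genes, 9 higher and 3 lower. That is 27.3% of the collagens, close to the 28.1% of all genes that passed. By direction, 20.5% of collagens were higher and 6.82% lower, against 13.2% and 14.9% of all genes. The groups did not overlap for 22.7% of collagens and 27.3% of all genes, and the median log2 change was 0.0648 for collagens and 0.0211 for all genes. Without control replicate 1 the count was 7, and without control replicate 3 it was 8. In bulk tissue, fewer cells of a type and less RNA per cell cannot be told apart, and this holds for every collagen below.

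**Figure D1:**
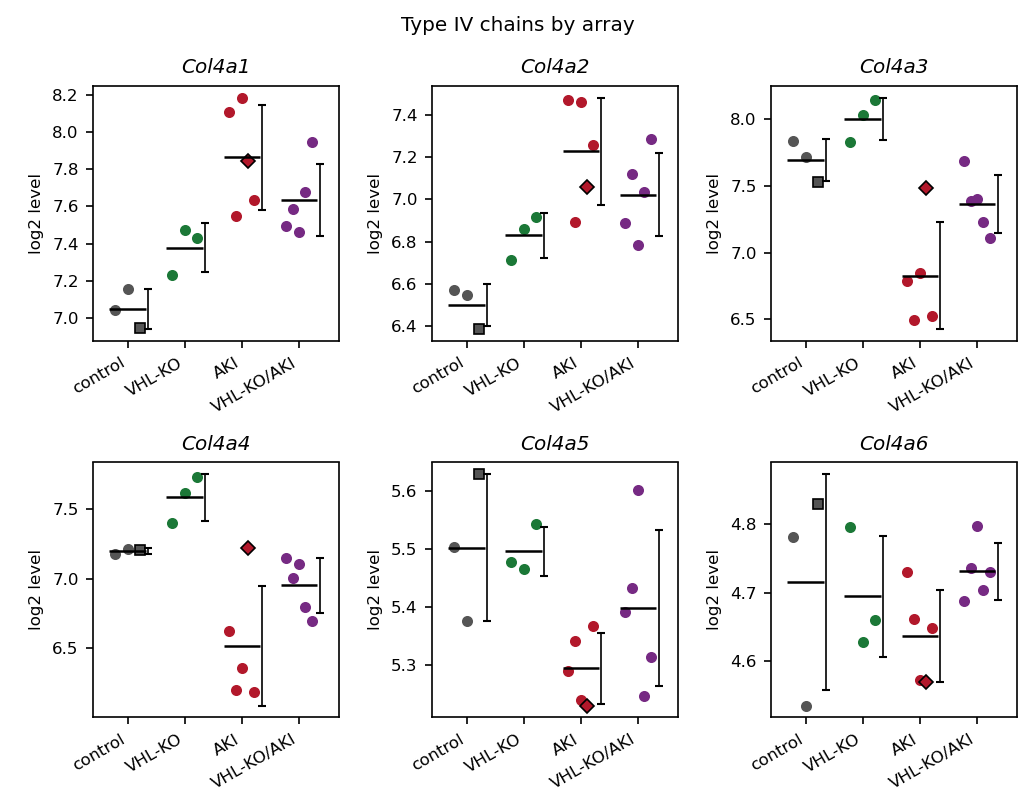
Log2 expression of the 6 type IV collagen genes on each array in the 4 groups, with the group mean as a horizontal line and the SD as a bar beside it; AKI replicate 4 is drawn as a black-edged diamond and control replicate 3 as a black-edged square. Col4a1 and Col4a2 are higher in every AKI array than in every control array, whereas Col4a3 is lower in every AKI array, and AKI replicate 4 is the highest AKI array for Col4a3 and Col4a4.

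The log2 level of Col4a1 was 7.04, 7.16 and 6.95 in control and 8.11, 7.55, 8.18, 7.84 and 7.63 in AKI. Every AKI kidney was above every control kidney. The log2 change was 0.81 (SE 0.143, 1.76-fold, limma adjusted p = 0.000724). Col4a2, the chain that completes the same trimer, was 6.57, 6.55 and 6.39 in control and 7.47, 6.89, 7.46, 7.06 and 7.26 in AKI. Again the groups did not overlap, and the log2 change was 0.73 (SE 0.134, 1.66-fold, adjusted p = 0.000988). Both calls held when any 1 array was left out, with the adjusted p of Col4a1 at most 0.00559 and that of Col4a2 at most 0.00741.

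Col4a3, whose product is the antigen of Goodpasture disease, was 7.84, 7.71 and 7.53 in control and 6.79, 6.49, 6.85, 7.48 and 6.52 in AKI. Every AKI kidney was below every control kidney, although replicate 4 lay just under the lowest control. The log2 change was -0.87 (SE 0.186, 1.82-fold lower, adjusted p = 0.0029). Col4a4, its partner gene, was 7.17, 7.21 and 7.20 in control and 6.63, 6.21, 6.36, 7.22 and 6.19 in AKI. The groups overlapped through AKI replicate 4 alone, which was above all 3 controls, and the log2 change was -0.68 (SE 0.188, 1.60-fold lower, adjusted p = 0.014). Both calls held with any 1 array left out. With AKI and control fitted alone, the call of Col4a4 was lost (adjusted p = 0.0615) and that of Col4a3 held (adjusted p = 0.0216). With the sex-linked covariate, which nearly coincides with injury, the change of Col4a3 turned from -0.87 to 0.023.

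Col4a5, on the X chromosome, was 5.50, 5.38 and 5.63 in control and 5.29, 5.34, 5.24, 5.23 and 5.37 in AKI. All AKI values were below all controls by a narrow margin, but the log2 change of -0.21 (SE 0.0778) missed the threshold (adjusted p = 0.0575). After quantile scaling it passed (adjusted p = 0.0371), and likewise after cyclic loess scaling (adjusted p = 0.0429). Col4a6, which pairs with Col4a5 in some epithelial basement membranes, was dim, at 4.72 ± 0.16 in control and 4.64 ± 0.07 in AKI (SD), with a log2 change of -0.08 (adjusted p = 0.448).

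With Vhl deleted in both groups, the glomerular chains were again lower after injury. Col4a3 was 7.83, 8.03 and 8.14 in VHL-KO and 7.68, 7.39, 7.40, 7.23 and 7.11 in VHL-KO/AKI. The groups did not overlap, and the log2 change was -0.64 (SE 0.186, 1.56-fold lower, adjusted p = 0.0336). Col4a4 was 7.40, 7.61 and 7.73 in VHL-KO and 7.15, 7.0, 7.11, 6.80 and 6.70 in VHL-KO/AKI. All injured kidneys were again lower, with a log2 change of -0.63 (SE 0.188, 1.55-fold lower, adjusted p = 0.0381). These 2 calls were lost without any of VHL-KO replicates 1, 2 or 3 or VHL-KO/AKI replicates 2, 4 or 5, where the highest adjusted p was 0.134 for Col4a3 and 0.15 for Col4a4. They were also lost after each of the 3 scalings tried, with adjusted p from 0.0637 to 0.0907 for Col4a3 and from 0.0681 to 0.099 for Col4a4. With the sex-linked covariate, which nearly coincides with injury, the change of Col4a3 turned to 0.41.

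Col4a1 and Col4a2 did not pass in that comparison. Col4a1 was 7.23, 7.48 and 7.43 in VHL-KO and 7.49, 7.59, 7.46, 7.68 and 7.95 in VHL-KO/AKI. The ranges overlapped at their edge, and the log2 change was 0.26 (adjusted p = 0.274). For Col4a2 the log2 change was 0.19 (adjusted p = 0.39). The difference between the injury effects with and without Vhl was -0.56 for Col4a1 (interaction adjusted p = 0.287) and -0.53 for Col4a2 (adjusted p = 0.273), so the smaller change in deleted kidneys was not shown to differ from that in kidneys with Vhl.

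Podocyte markers, like the glomerular chains, were mostly lower in the 2 comparisons of injured with uninjured kidneys, and their part in the result was not tested. Of 6 podocyte markers measured, 3 were lower and 1 higher in AKI than in control (median log2 change -0.347), and 5 were lower in VHL-KO/AKI than in VHL-KO (median -0.402). Over all genes, 28.1% passed in the first comparison and 13.6% in the second. Their mean level ranged from 7.10 to 7.40 in control, 7.28 to 7.44 in VHL-KO, 6.81 to 6.95 in AKI and 6.93 to 6.99 in VHL-KO/AKI. None of the 6 was dim. In VHL-KO/AKI against AKI none of the 6 passed, against 3.88% of all genes, and their median log2 change was 0.0543. Col4a3 and Col4a4 differed by 0.53 and 0.43 in that comparison. Synpo was the marker that rose in AKI, at 0.37, and Ptpro, a podocyte phosphatase, fell by 1.21. Endothelial markers, which include genes of the glomerular capillary, also moved, with 1 of 9 higher and 3 lower in AKI than in control, and 5 lower and none higher in VHL-KO/AKI than in VHL-KO (median -0.419).

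Proximal tubule markers also moved with injury, and their part was not tested either. Of 9, 7 were lower in AKI than in control (median -1.41), and 4 were lower and 1 higher in VHL-KO/AKI than in VHL-KO (median -0.891). Their log2 changes ran from -2.28 to 2.66 in the first comparison and from -1.76 to 4.91 in the second. In AKI replicate 4, where Col4a3 and Col4a4 were near control, the podocyte mean was 6.93, within the range of the AKI group. The proximal tubule mean of that kidney was 11.8, against 11.5, 11.5 and 12.2 in control. It was thus within the control range only through control replicate 3, which had the highest Y-linked mean of the controls (7.43). These values rest on 1 injured kidney that stood apart from its group. Whether Col4a3 and Col4a4 follow either marker set was not tested.

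**Figure D2:**
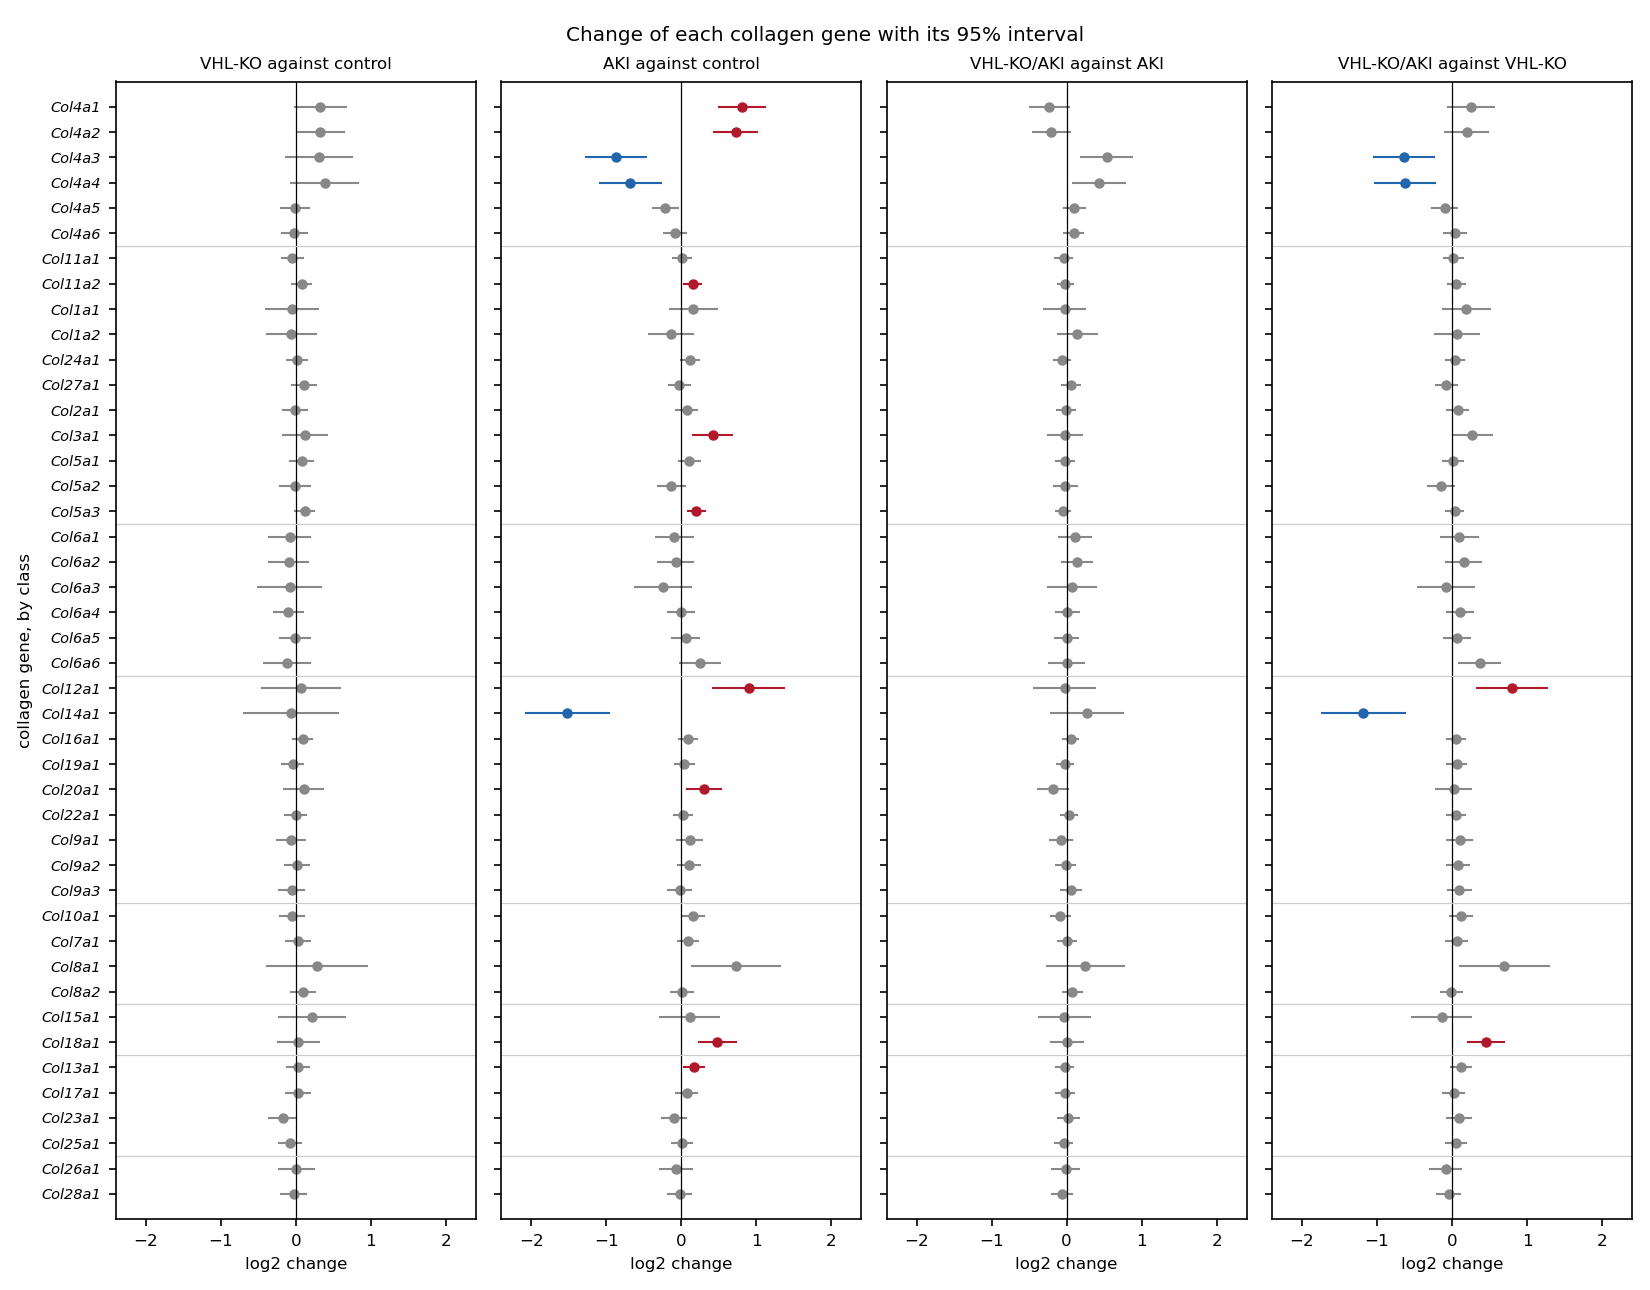
Log2 change and 95% interval of the 44 collagen genes in 4 panels, 1 for each comparison between groups; red marks genes that were higher, blue genes that were lower and grey genes that did not pass at an adjusted p of 0.05. Among the genes that passed in AKI against control, Col12a1, Col4a1 and Col4a2 lie farthest to the right and Col14a1 farthest to the left, whereas every gene is grey in the comparisons of deleted with undeleted kidneys.

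The fibril-associated collagens sit on the surface of fibrils and link them to other matrix. Col14a1 and Col12a1, 2 closely related members, moved in opposite directions with injury, both with and without Vhl. Col14a1 had the largest decrease of any collagen. It was 8.39, 8.71 and 8.33 in control and 7.36, 6.46, 6.84, 7.76 and 6.38 in AKI. All injured kidneys were below all controls, with replicate 4 nearest to them, and the log2 change was -1.52 (SE 0.261, 2.86-fold lower, adjusted p = 0.000626). In deleted kidneys it was 8.43, 8.54 and 8.26 before injury and 7.52, 7.38, 7.40, 6.99 and 6.87 after it. The separation was complete again, at a log2 change of -1.18 (SE 0.261, 2.27-fold lower, adjusted p = 0.00773). Both calls held with any 1 array left out.

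Col12a1, associated with type I fibrils under mechanical load, was 6.23, 6.43 and 6.14 in control and 7.26, 7.35, 7.35, 6.46 and 7.42 in AKI. Replicate 4 was barely above the highest control, and the other injured kidneys were well above it. The log2 change was 0.90 (SE 0.22, 1.86-fold, adjusted p = 0.00657), and it was 1.08 without AKI replicate 4 (adjusted p = 0.000182). In deleted kidneys Col12a1 was 6.42, 6.36 and 6.24 before injury and 6.66, 7.39, 6.82, 7.23 and 7.59 after it. The groups did not overlap and the log2 change was 0.80 (SE 0.22, 1.74-fold, adjusted p = 0.0251). That call was lost without VHL-KO replicates 1, 2 or 3 or VHL-KO/AKI replicates 2, 4 or 5, where the adjusted p reached 0.0951.

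Col20a1, a little-studied member of the class, was 5.16, 5.09 and 5.30 in control and 5.49, 5.32, 5.49, 5.86 and 5.27 in AKI. The ranges overlapped, and the log2 change of 0.30 (SE 0.108) passed narrowly (adjusted p = 0.0487). The call was lost in 13 of the 16 fits that left out 1 array, with an adjusted p of up to 0.173, and after quantile scaling. Of the other fibril-associated genes none passed, and the median log2 change of the 9 was 0.0909.

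Fibroblasts are known to make most interstitial collagen. The mean of their markers over 10 genes ranged from 6.16 to 6.19 in control, 6.22 to 6.48 in VHL-KO, 6.22 to 6.34 in AKI and 6.37 to 6.56 in VHL-KO/AKI. Lum, Meg3 and Clec3b were dim. Of the 10, Dcn alone passed in AKI against control, at 0.44 (adjusted p = 0.0482), while 28.1% of all genes passed. In VHL-KO/AKI against VHL-KO Dcn rose and Pi16 fell, while 13.6% of all genes passed. Adipose markers were higher with injury as well, at 6.73 to 7.95 in AKI against 6.02 to 6.52 in control. Of 5, 4 rose, against 13.2% of all genes. The part of either cell type in the collagen changes was not tested.

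The multiplexins are basement membrane proteoglycans, and Col18a1 is the precursor of the angiogenesis inhibitor endostatin. Col18a1 was 7.56, 7.67 and 7.39 in control and 8.33, 8.10, 7.99, 7.65 and 8.05 in AKI. AKI replicate 4 lay within the control range and the other injured kidneys above it. The log2 change was 0.48 (SE 0.114, 1.40-fold, adjusted p = 0.00517). In deleted kidneys it was 7.57, 7.5 and 7.65 before injury and 7.96, 8.14, 7.98, 8.06 and 8.01 after it. No values overlapped, and the log2 change was 0.46 (SE 0.114, 1.37-fold, adjusted p = 0.0155). The second call was lost without VHL-KO replicate 1 or 2, with an adjusted p of up to 0.0654. Col15a1, the other multiplexin, was spread from 6.32 to 7.29 in AKI around a control mean of 6.58 ± 0.15 (SD, n = 3), and its log2 change of 0.11 did not pass (adjusted p = 0.701).

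**Figure D3:**
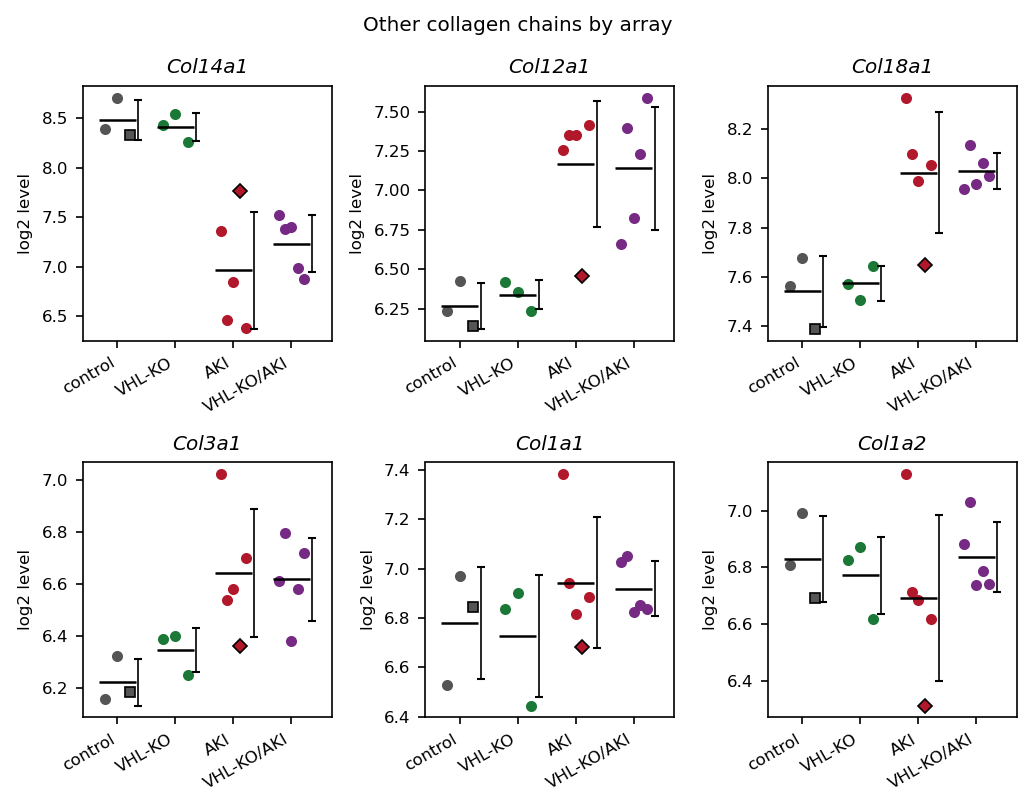
Log2 expression on each array in the 4 groups for fibril-associated, multiplexin and fibrillar collagens, with the group mean as a horizontal line and the SD as a bar beside it; AKI replicate 4 is a black-edged diamond and control replicate 3 a black-edged square. Col14a1 is lower and Col18a1 and Col12a1 are mostly higher in both injured groups, whereas the ranges of Col1a1 and Col1a2 overlap across all 4 groups.

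The fibrillar collagens form the cross-striated fibrils of the interstitium, with type I, a trimer of Col1a1 and Col1a2 chains, as the main fibril of scar tissue. Neither type I gene passed in any comparison. Col1a1 was 6.53, 6.97 and 6.84 in control, 6.84, 6.90 and 6.44 in VHL-KO, 7.38, 6.94, 6.82, 6.68 and 6.89 in AKI, and 7.03, 7.05, 6.82, 6.85 and 6.84 in VHL-KO/AKI. All groups overlapped, and the change in AKI against control was 0.16 (95% interval -0.15 to 0.48, adjusted p = 0.461). Col1a2 was 6.83 ± 0.15 in control and 6.69 ± 0.29 in AKI (SD), a change of -0.14 (95% interval -0.43 to 0.15, adjusted p = 0.503).

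Col3a1, the type III chain of fine reticular fibrils, was 6.16, 6.32 and 6.18 in control and 7.02, 6.54, 6.58, 6.36 and 6.70 in AKI. All injured kidneys were above all controls, and replicate 4 was the lowest of them. The log2 change was 0.42 (SE 0.122, 1.34-fold, adjusted p = 0.0182). The call was lost without control replicate 1 (adjusted p = 0.0727) or control replicate 3 (adjusted p = 0.063), and with AKI and control fitted alone (adjusted p = 0.0627). In deleted kidneys the change was 0.27 and did not pass (adjusted p = 0.167).

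The other fibrillar genes that passed in AKI against control were dim or near the dim limit, which was set at the 30th percentile of gene means, 4.93. Col5a3, a type V chain that joins heterotypic fibrils, was below it, at 4.71, 4.79 and 4.78 in control and 4.96, 5.03, 5.00, 4.92 and 4.91 in AKI. The groups did not overlap, but the log2 change was only 0.20 (SE 0.0521, 1.15-fold, adjusted p = 0.00919), and without control replicate 1 the adjusted p was 0.051. Col11a2, a type XI chain best known from cartilage, rose from 4.98 ± 0.04 to 5.14 ± 0.05 (SD), a log2 change of 0.15 (adjusted p = 0.0477) that was lost in 13 of 16 fits with 1 array left out. The median log2 change of the 11 fibrillar genes was 0.11.

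Among the remaining classes, Col13a1, a transmembrane collagen of cell junctions, passed in AKI against control. It was 5.46, 5.41 and 5.45 in control and 5.75, 5.53, 5.65, 5.64 and 5.49 in AKI, with no overlap between the groups. It rose by 0.17 on the log2 scale (SE 0.0615, adjusted p = 0.0458). The call was lost in 12 of the 16 fits that left out 1 array. No type VI, network-forming or anchoring, or other collagen passed. Type VI chains build the beaded filaments around cells, and the change in AKI against control was -0.09 for Col6a1 (adjusted p = 0.607), -0.08 for Col6a2 (adjusted p = 0.661) and -0.24 for Col6a3 (adjusted p = 0.345). Col6a3 was 6.78, 6.18, 5.80, 6.02 and 6.0 in AKI, against 6.4 ± 0.07 (SD, n = 3) in control. The first replicate alone was above the control mean, and without it the change was -0.40 (adjusted p = 0.0272).

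Col8a1, a short-chain network collagen of vessel walls, was chosen for mention after its values were seen. It was 6.53, 6.86 and 6.4 in control and 7.96, 7.60, 7.24, 6.4 and 7.44 in AKI. Replicate 4 lay at the lowest control value and the other injured kidneys lay above every control. The log2 change of 0.73 did not pass (SE 0.278, adjusted p = 0.063), and without AKI replicate 4 it was 0.96 (adjusted p = 0.0021). It was the member nearest to the threshold among the 24 not singled out by the naming rule, whose changes across the comparisons lay between -0.17 and 0.73.

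In VHL-KO/AKI against VHL-KO as a whole, 5 of 44 collagens passed, 2 higher (Col12a1 and Col18a1) and 3 lower (Col14a1, Col4a3 and Col4a4). That is 11.4% of collagens, against 13.6% of all genes, with 4.55% higher and 6.82% lower against 4.66% and 8.91%. The groups did not overlap for 18.2% of collagens and 24.3% of all genes. All 5 were also among the 12 of AKI against control, with the same sign. The count was 1 without VHL-KO replicate 2, leaving Col14a1, and it was 2 without VHL-KO replicate 1 or 3 or VHL-KO/AKI replicate 2, 4 or 5. After median centring, quantile scaling or cyclic loess scaling it was 4, with 3 higher and 1 lower, because Col4a3 and Col4a4 no longer passed and Col6a6, a type VI chain, did. Col6a6 was 6.73, 6.47 and 6.14 in VHL-KO and 6.77, 6.84, 6.95, 6.74 and 6.78 in VHL-KO/AKI. The injured kidneys were all slightly above, and the unscaled log2 change was 0.37 (adjusted p = 0.0683).

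Tubular Vhl deletion without injury moved no collagen past the threshold. In VHL-KO against control 0 of 44 passed in limma, against 0.527% of all genes (0.476% higher and 0.0502% lower), and 1 had an unadjusted p below 0.05. The groups did not overlap for 15.9% of collagens and 17.2% of all genes. The gene with the unadjusted p was Col4a2, at 6.71, 6.86 and 6.92 in VHL-KO, all above the 3 controls. Its log2 change was 0.33 (SE 0.149, adjusted p = 0.578). Col4a1, at 7.23, 7.48 and 7.43, was also above all controls, with a change of 0.33 (SE 0.16, adjusted p = 0.621), and Col4a4 changed by 0.38 (adjusted p = 0.687) and Col4a3 by 0.31 (adjusted p = 0.781). Endothelial markers had higher values in the same kidneys, with a mean of 9.72 to 9.99 against 9.24 to 9.35 in control and a median log2 difference of 0.548, but none of the 9 passed and their part was not tested.

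In injured kidneys, Vhl deletion again moved no collagen past the threshold. In VHL-KO/AKI against AKI 0 of 44 passed in limma, against 3.88% of all genes (2.48% higher and 1.4% lower), and 2 had an unadjusted p below 0.05. No collagen had non-overlapping groups, against 3.78% of all genes. Those 2 were Col4a3, with a log2 difference of 0.53 (SE 0.162, 95% interval 0.19 to 0.88, adjusted p = 0.0813), and Col4a4, with 0.43 (SE 0.163, adjusted p = 0.164). Their values overlapped through AKI replicate 4, the highest AKI array for both. Without it the difference was 0.70 for Col4a3 (adjusted p = 0.00214) and 0.61 for Col4a4 (adjusted p = 0.00363), and both passed. Without VHL-KO/AKI replicate 5, Col4a3 alone passed (0.60, adjusted p = 0.0458). Col14a1 differed by 0.27 (adjusted p = 0.578), Col12a1 by -0.03 (adjusted p = 0.964) and Col1a1 by -0.02 (adjusted p = 0.947).

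The interaction asks whether the injury effect differs with Vhl status. No collagen passed in limma, against 0.01% of all genes, and 3 had an unadjusted p below 0.05, namely Col4a1, Col4a2 and Col5a3. The difference for Col5a3 was -0.16 (adjusted p = 0.402). For Col4a3 it was 0.23 (adjusted p = 0.797) and for Col4a4 0.05 (adjusted p = 0.972). The comparisons share groups, so the changes stand side by side and are not independent of each other. In all, 32 of 44 collagens passed in none of the 5 comparisons.

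Chains that assemble in the same molecule or lie head to head were compared as 7 pairs in each of 4 comparisons. The difference of their log2 changes was tested with exact two-sided permutation tests, and none of the 28 passed after Benjamini-Hochberg adjustment, while 4 had an unadjusted p below 0.05. The smallest p the design allows is 0.00794 for 5 against 5 kidneys, 0.0357 for 3 against 5 and 0.1 for 3 against 3. With these floors no test of 3 against 3 could pass and the others could pass only if several reached their floor together, so the count of 0 was largely set by the design. Col4a1 and Col4a2 changed by amounts that differed by 0.09 in AKI against control (exact p = 0.393, adjusted 0.747). For Col4a3 and Col4a4 the difference was -0.19 (exact p = 0.107, adjusted 0.374). Col1a1 changed by 0.30 more than Col1a2 (exact p = 0.0714, adjusted 0.286), and Col5a1 by 0.24 more than Col5a2 (exact p = 0.0357, adjusted 0.25). The smallest exact p of the 28 was for Col1a1 and Col1a2 in VHL-KO/AKI against AKI, a difference of -0.17 (exact p = 0.0159, adjusted 0.25).

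Collagen chains are hydroxylated and glycosylated in the endoplasmic reticulum before the helix folds, and several of those enzymes are known HIF targets. In VHL-KO against control 3 of 17 measured folding and modification genes rose and none fell, while 0.527% of all genes passed. Plod2, the lysyl hydroxylase of collagen telopeptides, averaged 7.97 in control and 9.62 in VHL-KO, a log2 change of 1.65 (adjusted p = 0.000698). P4ha1, the catalytic subunit of prolyl 4-hydroxylase, averaged 8.84 and 10.22, a change of 1.38 (adjusted p = 0.00031). P4ha2, its alternative subunit, rose by 0.69 (adjusted p = 0.0439).

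**Figure D4:**
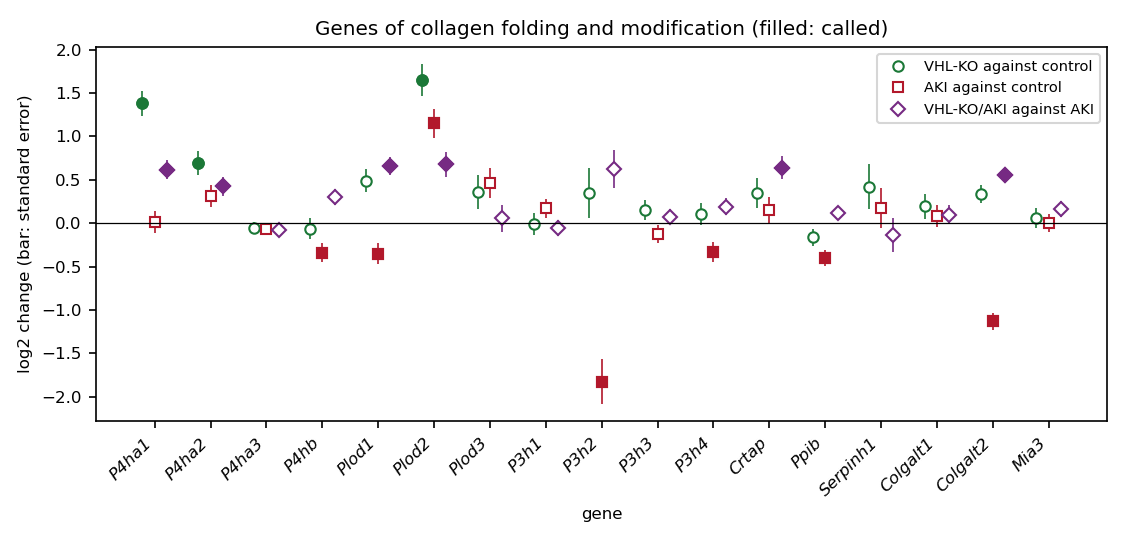
Log2 change of the 17 measured collagen folding and modification genes in 3 comparisons, with the SE as a bar and filled symbols for genes that passed at an adjusted p of 0.05. Plod2 and P4ha1 rise most in VHL-KO against control, and P3h2 and Colgalt2 fall most in AKI against control.

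In AKI against control 1 of 17 rose and 6 fell, while 28.1% of all genes passed. Plod2 rose by 1.15 (adjusted p = 0.000187). P3h2, a prolyl 3-hydroxylase of type IV collagen, fell by 1.82 (adjusted p = 0.000146), and Colgalt2, a collagen galactosyltransferase, fell by 1.13. Ppib, P3h4, P4hb and Plod1 fell by 0.34 to 0.40. In VHL-KO/AKI against AKI 6 rose and none fell, while 3.88% of all genes passed. Among the 6 were Plod2 (0.68, adjusted p = 0.022), Plod1 (0.66, adjusted p = 0.00432), Crtap, a partner of prolyl 3-hydroxylase (0.64, adjusted p = 0.0202), and P4ha1 (0.62, adjusted p = 0.00804). Colgalt2 and P4ha2 were the others. In VHL-KO/AKI against VHL-KO none rose, and P3h2, Colgalt2 and P4ha1 fell, while 13.6% of all genes passed.

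Other lists cover the genes that trim, cross-link, bind, degrade or induce collagen. In AKI against control 28.1% of all genes passed, 13.2% higher and 14.9% lower, and the counts of these lists stand beside that share. Of 10 trimming and cross-linking genes, 2 rose and 1 fell in that comparison. Lox, lysyl oxidase, rose by 1.97 (adjusted p = 0.0066) and Loxl1 by 0.96 (adjusted p = 0.000766), and Pcolce, the enhancer of procollagen cleavage, fell by 0.86 (adjusted p = 0.00224). Of 8 receptors, Itgb1 and Itga2 rose and Itga1, the integrin chain that binds type IV collagen, fell by 1.10 (adjusted p = 0.000169). Of 11 breakdown genes, 2 rose and 2 fell, and Timp1, a metalloproteinase inhibitor, rose by 3.53 (adjusted p = 0.00191). Of 12 collagen-associated matrix genes, which include the basement membrane genes Hspg2 and Nid2, 6 rose and 1 fell. Tnc rose by 1.56 (adjusted p = 0.0121) and Postn by 0.53 (adjusted p = 0.0191), while Fn1, fibronectin, fell by 0.67 (adjusted p = 0.0494). Of 8 inducers of collagen transcription, 4 rose and 2 fell. Ccn2, connective tissue growth factor, rose by 1.37 with injury (adjusted p = 6.3e-05) and by 0.98 with Vhl deletion alone (adjusted p = 0.0329).

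In VHL-KO against control, where 0.527% of all genes passed, no trimming, receptor or breakdown gene did. Of the 12 collagen-associated matrix genes 1 passed, namely Hspg2, the basement membrane proteoglycan perlecan (0.50, adjusted p = 0.0439). In VHL-KO/AKI against AKI, where 3.88% of all genes passed, Dcn (decorin), which binds fibrils, rose by 0.69 (adjusted p = 0.0153), and no other gene of these lists passed. In VHL-KO/AKI against VHL-KO, 2 of 12 collagen-associated matrix genes rose (Postn by 0.55 and Dcn by 0.53) and 2 fell (Hspg2 by 0.66 and Nid2 by 0.61). Over all genes 13.6% passed there. Of 11 breakdown genes Timp1 rose by 2.75 (adjusted p = 0.0189), and Mmp13 and Mmp2 fell. Of 8 receptors Itga11, which was dim, rose and Itga1 fell, of 8 inducers Tgfb2 fell, and no trimming or cross-linking gene passed.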

How the data were processed

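RNA from 16 kidneys was hybridised to whole-transcript arrays. The deposited values are log2 expression made by the authors with RMA and Partek 6.4, per the submitters' processing notes. The genome build of the probe sets is not given in the sources used here. Of 35556 probe sets, 21789 name 1 gene, 1621 several and 12146 none, and genes came from the platform's annotation. For each of 19938 genes the brightest probe set was kept, and no further scaling was applied, since array medians lay between 5.92 and 6.03. The collagens and gene lists were chosen with earlier results of these data known. All 44 collagen symbols matched RefSeq. A model with 1 mean per group was fitted to all 16 arrays in limma 3.58.1 (R 4.3.3), which shares 1 estimate of spread, with 12 residual and 2.83 prior degrees of freedom. Calls use a Benjamini-Hochberg adjusted p below 0.05 over all genes. The scripts were tested on simulated data. The naming rule took the collagens that passed anywhere plus listed chains of types I, III, IV, VI, XV and XVIII, 20 in all, and from each pathway list up to 4 called genes with the largest change. Of the collagens, 34 were above the dim limit and 10 below. The number of arrays limits the precision. Alternatives covered probe set averaging, the dim filter, 3 scalings, variance settings, array weights, blocks and covariates, fits to the compared groups alone and leaving arrays out. Leaving out control replicate 3 and AKI replicate 4 together was added after seeing the data.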

Additional observations from a re-analysis of the deposited data

Results flagged for a closer look

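Among 20 collagens in the groups of 5 kidneys, 40 sets of values were examined for a kidney far from the rest, and 1 was found. Col12a1 in AKI replicate 4 was 6.46, the lowest of its group, with the nearest of the others at 7.26. That gap is 0.832 of the whole range of the group. Chance alone sets about 1 in 20 such groups apart. The same kidney was the highest of the AKI group for Col14a1, Col4a3 and Col4a4 and the lowest for Col18a1, Col3a1 and Col1a2.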

How the results depend on the processing

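Collagen counts changed most when the sex-linked signal was a covariate. AKI against control went from 12 collagens to 0 and VHL-KO/AKI against VHL-KO from 5 to 0. The log2 change of Col4a3 turned to 0.023 and 0.41. The sex-linked signal nearly coincides with injury in these arrays, so the loss of calls was largely set by the design. This fit cannot separate injury from sex-linked signal. With the compared groups alone, AKI against control gave 7. Leaving out 1 array gave 7 to 13 in AKI against control, 0 to 2 in VHL-KO/AKI against AKI and 1 to 7 in VHL-KO/AKI against VHL-KO. Array weights gave 2 in VHL-KO/AKI against AKI, as did leaving out both control replicate 3 and AKI replicate 4. With the replicate number as a block, VHL-KO/AKI against VHL-KO gave 3 and AKI against control 9. Same-numbered kidneys showed no shared deviation (median correlation -0.0427, 3 of 20 pairs over 0.1). Other pairs had a median of -0.0146, with 18 of 74 over 0.1. The labels do not say whether the numbers pair the kidneys, and these values do not settle it. VHL-KO against control and the interaction stayed at 0 collagens under every alternative. Of 17 calls, 8 held with each single array left out. Over the 20 collagens named by the rule, which leave out Col8a1 and Col6a6, 97 of 2212 refits of uncalled results changed sign and 14 passed.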
